A study of Mus musculus with 12 samples.

Results

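Group 2 innate lymphoid cells (ILC2s) and eosinophils that had shared a culture were compared across all genes in 6 of the 12 libraries of the series, 3 of cocultured ILC2s and 3 of cocultured eosinophils. Every gene that passed a filter on low counts in these 6 libraries was tested, 14634 of the 49315 in the table. A further 16401 genes had counts here but failed the filter, and 18280 had none. All cells came from C57BL/6 mice. The ILC2s were sorted from lung after lineage depletion, expanded in IL-33, IL-25, IL-2 and IL-7, then held for 48 h in IL-2 and IL-7. The eosinophils were the blood fraction left by B220 and CD90 beads and were held for 24 h with IL-33. After washing, both were placed together for 24 h in medium without added cytokine and were parted again by flow cytometry. In the other 6 libraries each cell type, prepared in the same way, spent those 24 h alone. Tissue of origin and earlier cytokines differ along with the cell type and cannot be told apart from it. Nothing in the labels tells whether the 3 replicates came from different mice or wells, and every p-value here rests on the variation among them, part of which may be technical.

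ILC2s are lymphocytes without rearranged antigen receptors that depend on the transcription factor GATA3 and release IL-5, IL-13 and other mediators when alarmins such as IL-33 reach them. Eosinophils are granulocytes that mature under C/EBP, PU.1 and GATA1 control, live on IL-5, IL-3 and GM-CSF, and carry cationic granule proteins and an NADPH oxidase. In allergic lung ILC2-derived IL-5 feeds eosinophils, and IL-13 acts on epithelium, macrophages and smooth muscle. Comparing their transcripts shows on which side the gene of a ligand or of its receptor was the more abundant.

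The 6 libraries held 19005254 to 21984220 counts and 21959 to 22230 genes with a count. Values below are read counts normalised to library size (CPM) and scaled by TMM over these libraries, given as mean ± SD with n = 3 unless all 3 are listed. A log2 fold change is ILC2s over eosinophils ± SE from edgeR's quasi-likelihood test, and a gene was called at a Benjamini-Hochberg adjusted p under 0.05 over all genes tested. By this rule ILC2s had the higher level of 6374 genes (43.6%) and eosinophils of 5922 (40.5%). Past 2-fold there were 4091 (28%) on the ILC2 side and 3213 (22%) on the eosinophil side. With 84% of genes called and 84.7% showing groups that did not overlap, the size of a difference and the share of a gene list on each side say more than a call. A list with shares near 43.6% and 40.5% is split much as all genes were. Scaling moved the split. TMM put 51.8% of calls on the ILC2 side, library totals 65.8% (8177 against 4247 genes) and upper quartile scaling 59% (7265 against 5047). The median log2 fold change of all genes went from 0.05 to 0.446 and 0.249 in turn, so directions of small differences depend on it.

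**Figure D1:**
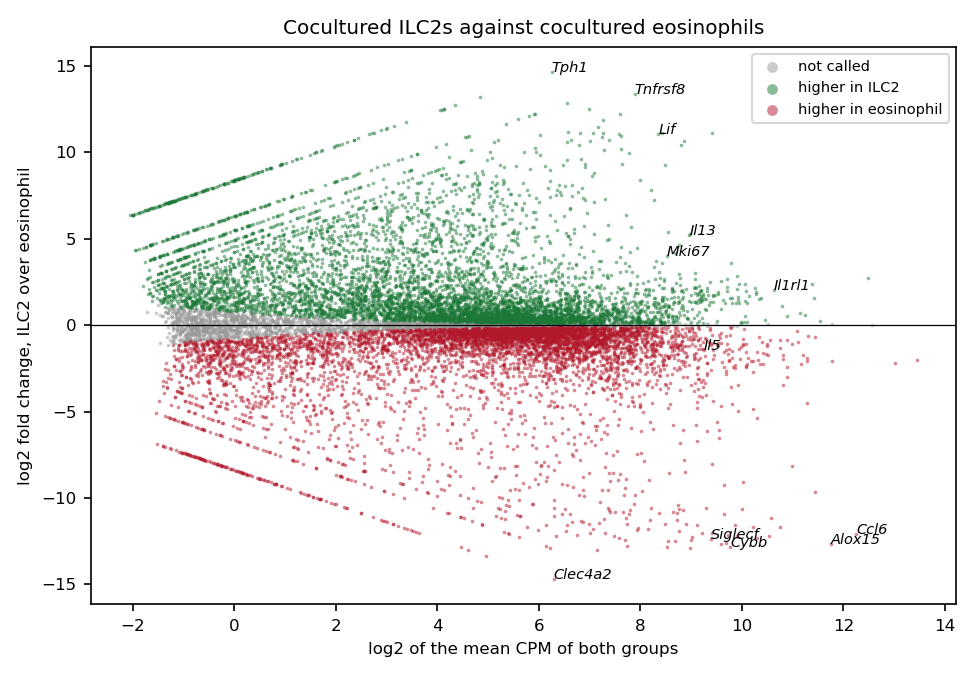
Each point is 1 of the 14634 tested genes, with the log2 of the mean CPM of both groups on the x axis and the log2 fold change of cocultured ILC2s over cocultured eosinophils on the y axis. Green points were called higher in ILC2s, red points higher in eosinophils and grey points were not called; the cell-defining genes reach beyond 10 on either side.

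The defining genes of both cells lay with their labels. Gata3 (chr2:9857078-9890034, mm10), which encodes the master regulator of ILC2s, read 669, 697 and 697 CPM in the 3 ILC2 libraries and 0.485, 0.220 and 0.223 CPM in the 3 eosinophil libraries. Siglecf (chr7:43351341-43359531), a sialic acid binding receptor of mouse eosinophils, read 0.207, 0.346 and 0.200 CPM in ILC2s and 1338, 1357 and 1343 CPM in eosinophils. Neither gene's groups came near each other, with log2 fold changes of 11.11 ± 0.11 (edgeR adjusted p = 6.44e-35) and -12.37 ± 0.10 (edgeR adjusted p = 1.97e-36). In bulk libraries less RNA per cell cannot be told apart from fewer cells of a type.

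All 30 ILC2 identity genes passed the filter, 26 of them higher in ILC2s and 3 in eosinophils, with a median log2 fold change of 8.10 against 0.05 over all genes. Il2ra, the high-affinity chain of the IL-2 receptor, averaged 1358 ± 51.4 CPM in ILC2s and 0.602 ± 0.268 in eosinophils. Cxcr6, a lung-homing chemokine receptor, stood at 885 against 0.626 CPM, and Arg1, the arginase of ILC2s, at 717 against 1.13 CPM. Icos, a costimulatory receptor, stood at 335 against 0.189 CPM. The 3 members on the eosinophil side were Zbtb16 (0.0960 CPM in ILC2s, 28.4 in eosinophils), a zinc finger factor of ILC precursors, Crlf2 (78.1 and 233 CPM), the TSLP receptor, and Ptprc (1219.5 and 2249 CPM), which encodes the pan-leukocyte antigen CD45. Il1rl1, the IL-33 receptor, was abundant in both cells. It read 2393, 2553 and 2682 CPM in ILC2s and 632, 637 and 609 CPM in eosinophils. Its groups were apart, with a log2 fold change of 2.02 ± 0.049.

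Lymphoid signalling genes lay mostly with the ILC2s, 15 of 19 tested against 4. Gimap3, a lymphocyte survival GTPase, averaged 380.1 CPM in ILC2s and 0.168 in eosinophils, the kinase gene Zap70 301 and 0.156, and the adaptor gene Skap1 227 and 0.287. Ptpn22, Txk and Cd3d were higher in eosinophils (log2 fold changes -1.12, -1.50 and -1.24, Cd3d being named after its values were seen), and so was Ikzf3 (-0.40), whose difference was 9e-04 when scaled by library totals. T cell receptor constant regions, which ILC2s can transcribe without a functional receptor, were also on the ILC2 side in 5 of the 6 tested members of their list, and Foxp3, the other, did not pass. Trbc2 averaged 57.1 ± 2.80 CPM in ILC2s and had 0 counts in eosinophils. Setting the 3 eosinophil libraries together at a minimum of 3 counts, it was at least 1000.3-fold higher in ILC2s, and later lower bounds use the same minimum. Trbc1 reached 8.03 CPM in ILC2s and Tcrg-C1 69.4 CPM. Cd4 was near 0 in both cells (0.0276 CPM in ILC2s and 0 counts in eosinophils).

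All 27 tested eosinophil surface genes were higher in eosinophils (median log2 fold change -10.95), and their summed level was 29648 to 29785 CPM there against 86.2 to 92.2 CPM in ILC2s. Ccr3, the eotaxin receptor, read 2068, 2031 and 2085 CPM in eosinophils and 1.41, 0.605 and 1.80 CPM in ILC2s. Il5ra, the specific chain of the IL-5 receptor, read 229.8, 234 and 219.6 CPM and 0.124, 0.0432 and 0.0800 CPM in turn. Sirpa, the inhibitory receptor for CD47, averaged 2372 ± 19.6 CPM in eosinophils and 0.707 in ILC2s, and Adgre1, which encodes F4/80, 1596 ± 16.6 and 0.801. Every eosinophil library exceeded every ILC2 library for these 4 genes by more than 100-fold.

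GATA factors act in both lineages, so the promoter windows of both receptor genes are shown with the GATA core AGATAA in capitals, searched on both strands (TTATCT on the other) without overlap with another searched motif. The windows run from 250 bases before to 50 after the RefSeq start on GRCm38.p6, Ccr3 chr9:124021721-124022020 on the plus strand and Il5ra chr6:106748988-106749287 on the minus strand, 5′ to 3′ along the gene.
Ccr3: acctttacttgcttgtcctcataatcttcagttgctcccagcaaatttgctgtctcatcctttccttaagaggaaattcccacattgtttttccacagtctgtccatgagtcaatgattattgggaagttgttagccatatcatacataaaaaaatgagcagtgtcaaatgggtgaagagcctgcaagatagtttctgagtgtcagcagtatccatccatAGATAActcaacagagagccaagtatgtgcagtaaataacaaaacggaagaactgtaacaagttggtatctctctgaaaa
Il5ra: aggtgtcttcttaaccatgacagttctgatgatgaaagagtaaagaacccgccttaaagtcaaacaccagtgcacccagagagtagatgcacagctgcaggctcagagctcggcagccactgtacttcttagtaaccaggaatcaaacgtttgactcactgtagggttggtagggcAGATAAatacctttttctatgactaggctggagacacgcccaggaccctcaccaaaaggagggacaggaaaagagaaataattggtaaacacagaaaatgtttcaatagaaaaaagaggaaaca
Each holds 1 match of AGATAA, the only GATA form searched. The Ccr3 window also holds the related form AGATAG, which is left unmarked. Among the 30 windows of the 25 matched eosinophil surface genes, 9 (30.0%) held the core, against 11.2% of all 32851 windows. In the 33 windows of 23 matched ILC2 identity genes 5 (15.2%) did. A match is a description of the letters and not a binding site.

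Granule genes followed, with 9 of 11 tested members higher in eosinophils and 2 in ILC2s. Prg2, which encodes major basic protein, read 378, 370.2 and 394 CPM in eosinophils and 0, 0.130 and 0.0800 CPM in ILC2s. Epx, the eosinophil peroxidase gene, averaged 14.96 ± 1.38 CPM in eosinophils with 3 counts in ILC2s, a ratio of 361, with a 95% counting error interval of 123 to 1756. Ear2 and Ear6 encode eosinophil ribonucleases and belong to a family of near-identical copies, so their values are uncertain. Ear2 averaged 48.9 CPM in eosinophils and had 0 counts in ILC2s (at least 1178-fold), and Ear6 98.8 CPM. Alox15, the lipoxygenase of specialised lipid mediators, averaged 6936 ± 101 CPM against 1.05 in ILC2s. The members on the ILC2 side, the neutrophil granule genes Mpo (2.35 and 0.115 CPM) and Ctsg (0.634 and 0.0183 CPM), were low in both cells.

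Myeloid transcription factors were higher in eosinophils in 13 of 19 cases and in ILC2s in 4. Cebpe, needed for eosinophil and neutrophil granules, averaged 819 ± 40.3 CPM in eosinophils and 0.138 in ILC2s, Spi1, which encodes PU.1, 713 and 0.239, and Gata1 235 and 0.529. Examples on the ILC2 side were Irf8 (18.9 against 1.75 CPM), Ikzf1 (463 against 322) and the immediate early gene Egr1 (37.9 against 15.4).

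**Figure D2:**
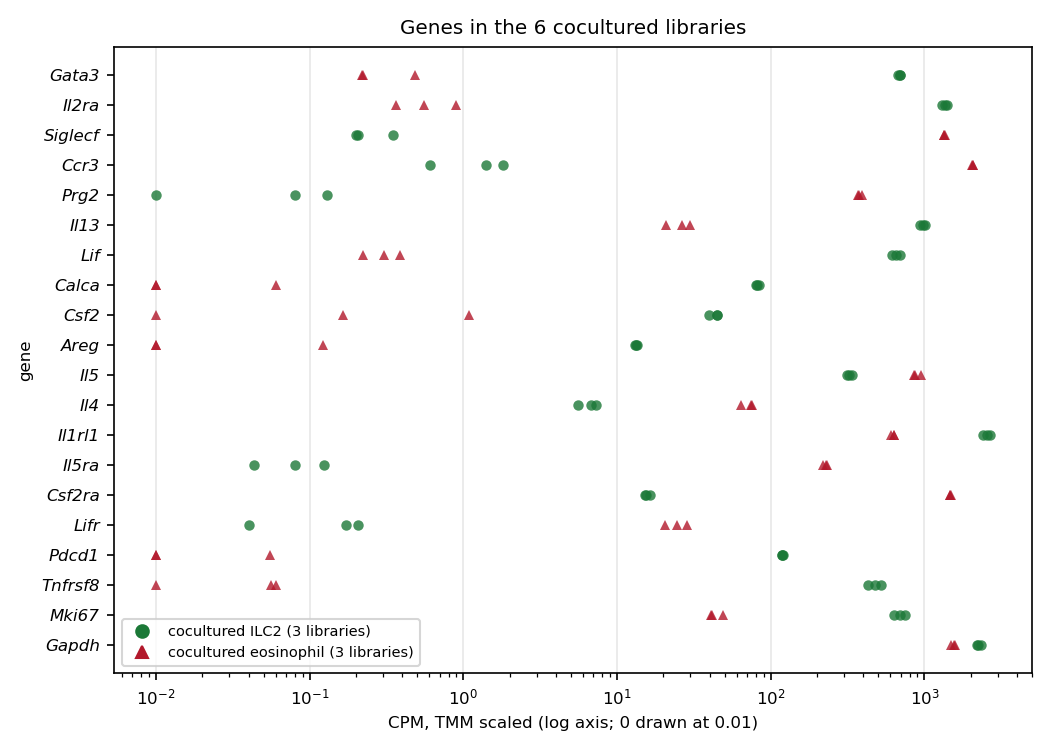
Each row is a gene and each symbol 1 library, with CPM on a logarithmic x axis and 0 drawn at 0.01; circles are the 3 cocultured ILC2 libraries and triangles the 3 cocultured eosinophil libraries. Gata3 and Siglecf lie at opposite ends in the 2 cells, while Il5, Il1rl1 and Gapdh lie within 10-fold of each other.

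Markers of other cells were checked in full because the eosinophils were a bead-negative blood fraction. Of 7 tested basophil and mast cell genes, 6 were higher in eosinophils, with a summed level of 139 to 149 CPM against 31.2 to 40.3 CPM in ILC2s. Most of it was Gata2 (92.3 CPM), which eosinophils also express; Hdc stood at 16.4 CPM, Ms4a2 at 3.99 CPM, and 4 of the 13 listed markers had 0 counts in eosinophils. Neutrophil markers summed to 812 to 916 CPM in eosinophils, with Retnlg at 738 CPM and Cxcr2 at 117 CPM, against 2.29 to 6.75 CPM in ILC2s. With scaling over the 12 libraries, Retnlg read 775, 695 and 789 CPM in cocultured eosinophils and 119, 96.0 and 130 CPM in lone ones. Cxcr2 went the other way, with 114, 118 and 127 CPM cocultured and 217, 219 and 210 CPM alone. Monocyte and macrophage markers summed to 594 to 629 CPM in eosinophils, mostly Csf1r (472 CPM), and to 406 to 499 CPM in ILC2s, mostly Ccr2 (441 CPM), a receptor that ILC2s also carry. B cell markers summed to 254 to 286 CPM in eosinophils, with Ighm at 237 CPM and Cd79a at 16.2 CPM, and to 54.6 to 61.5 CPM in ILC2s. Platelet and red cell markers summed to 571 to 593 CPM in eosinophils, nearly all Itga2b (577 CPM), while Ppbp was at 0.820 CPM. In ILC2s they summed to 14.7 to 18.4 CPM, mostly the haemoglobin gene Hba-a1. Scaled over the 12 libraries, Hba-a1 read 13.3, 13.1 and 16.8 CPM in cocultured ILC2s and 0.288, 0.361 and 0.524 CPM in lone ILC2s. NK and ILC1 markers (5.71 to 10.4 CPM in ILC2s, 0.330 to 0.558 in eosinophils) and lung epithelial or stromal markers (5.53 to 5.96 and 12.1 to 15.1 CPM) were low in both. The part of such cells in the differences was not tested.

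Transcripts of the partner cell were measured in each cell as well. Over 38 ILC2 and lymphoid markers, the median level in cocultured eosinophils was 0.28% ± 0.0256 of that in cocultured ILC2s, against 0.293% ± 0.0858 in eosinophils cultured alone (n = 3 each, two-sided exact permutation p = 0.9, where the smallest possible is 0.1). Over 31 eosinophil markers, cocultured ILC2s held 0.0533% ± 0.0147 of the eosinophil level and ILC2s alone 0.0421% ± 0.00702 (two-sided exact permutation p = 0.4, smallest possible 0.1). Both differences in the median were smaller than the larger SD of the groups compared. The mean over the same markers in eosinophils was 20.1% ± 0.16 cocultured and 18.3% ± 0.0366 alone, and in ILC2s 1.92% ± 0.174 cocultured and 2.71% ± 0.563 alone (n = 3 each, two-sided exact permutation p = 0.1 for both, the smallest possible). These differences exceeded the larger SD, upwards with coculture in eosinophils and downwards in ILC2s, and 3 against 3 libraries cannot reach 0.05. The mean in eosinophils includes markers that were higher there than in ILC2s, such as Crlf2, Ptprc and Ptpn22. It is therefore not a share of ILC2 RNA.

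Type 2 cytokines and effectors were divided between the cells, 12 of 23 tested genes with ILC2s and 11 with eosinophils, all 23 over 2-fold. These shares, 52.2% and 47.8%, stood against 43.6% and 40.5% of all genes, or 28% and 22% over 2-fold. Il13 (chr11:53631324-53634702), the cytokine of mucus and airway hyperreactivity, read 934, 977 and 1001 CPM in ILC2s and 30.0, 20.9 and 26.6 CPM in eosinophils. Il5 (chr11:53720794-53725106), the eosinophil growth factor, read 316, 324 and 339 CPM in ILC2s and 871, 857 and 949 CPM in eosinophils. The 2 genes thus lay on opposite sides, and no library of either cell overlapped the other. Il13 lay with ILC2s (5.24 ± 0.077, edgeR adjusted p = 1.33e-30) and Il5 with eosinophils (-1.45 ± 0.049, edgeR adjusted p = 1.46e-21). Il4 was low in ILC2s (7.24, 5.53 and 6.80 CPM) and higher in eosinophils (75.5, 63.8 and 74.7 CPM), with a log2 fold change of -3.45 ± 0.094. Il9, Il3 and Il33 had at most 7 counts over the 3 libraries of either cell and were not tested.

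Il13 and Il5 sit in the same cytokine cluster on chromosome 11. Their RefSeq promoter windows (GRCm38.p6, Il13 chr11:53634653-53634952 on the minus strand and Il5 chr11:53720544-53720843 on the plus strand) are shown because the 2 genes parted between the cells; capitals mark the GATA core AGATAA on either strand.
Il13: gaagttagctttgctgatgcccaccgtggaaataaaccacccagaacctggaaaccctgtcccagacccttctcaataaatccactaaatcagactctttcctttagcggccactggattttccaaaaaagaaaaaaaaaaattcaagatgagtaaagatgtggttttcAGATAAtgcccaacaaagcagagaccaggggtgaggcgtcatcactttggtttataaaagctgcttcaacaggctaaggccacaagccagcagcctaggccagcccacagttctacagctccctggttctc
Il5: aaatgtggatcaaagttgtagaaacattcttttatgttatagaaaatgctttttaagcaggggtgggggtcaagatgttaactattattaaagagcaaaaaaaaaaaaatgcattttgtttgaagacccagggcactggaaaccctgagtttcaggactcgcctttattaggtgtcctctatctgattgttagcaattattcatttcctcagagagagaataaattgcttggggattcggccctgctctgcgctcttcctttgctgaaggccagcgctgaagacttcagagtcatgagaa
Il13 holds 1 match and Il5 none of AGATAA or the STAT palindrome TTCNNNGAA, which says only that these letters are not in this window. The related form AGATAG was not searched, and the Il5 window holds it on the other strand (CTATCT). Over the 31 windows of 25 matched type 2 genes, 5 (16.1%) held AGATAA against 11.2% of all windows, and 2 (6.5%) held the STAT palindrome against 8.3%.

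Several other mediators lay on the ILC2 side. Lif, an IL-6 family cytokine, read 650.2, 696 and 613 CPM in ILC2s and 0.303, 0.385 and 0.223 CPM in eosinophils (11.04 ± 0.11). Calca, which encodes the neuropeptide CGRP, averaged 81.6 ± 1.99 CPM in ILC2s with 1 count in eosinophils, a ratio of 4287, with a 95% counting error interval of 769 to 169367. Csf2, which encodes GM-CSF, read 39.8, 44.3 and 44.5 CPM in ILC2s and 1.09, 0.165 and 0 in eosinophils. Every ILC2 library was above every eosinophil library for these 3 genes. For Csf2 the log2 fold change of 6.72 became 8.91 without eosinophil replicate 1 and 6.12 without replicate 3. Areg, the epidermal growth factor receptor ligand amphiregulin, averaged 13.2 CPM (ratio 348, with a 95% counting error interval of 96.1 to 2879), and Il10 8.71 CPM (ratio 457, with a 95% counting error interval of 81.7 to 18077). Penk, the enkephalin precursor, stood at 30.3 against 0.246 CPM, Osm, an IL-6 family cytokine, at 144 against 39.1, and Il6 at 27.2 against 4.72. On the eosinophil side Il1rn, the IL-1 receptor antagonist, averaged 1651 ± 163 CPM against 0.261 in ILC2s, and Tgfb1 651 against 278. Csf1, the macrophage growth factor, stood at 324 against 29.3 CPM, Mmp9, a matrix protease, at 201 against 1.15, and Retnla, a resistin-like protein of type 2 responses, averaged 186 CPM with 3 counts in ILC2s, a ratio of 4458, with a 95% counting error interval of 1525 to 21619.9. The inflammatory cytokine Tnf (47.2 against 1.64 CPM) and Il1a (35.8 against 0.525) were also with eosinophils. Il1b had 0 counts in ILC2s and was at least 418-fold higher in eosinophils (17.3 CPM).

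Of 36 tested cytokine receptor genes 17 (47.2%) were higher in ILC2s and 19 (52.8%) in eosinophils, against 43.6% and 40.5% of all genes. By library totals they were 19 and 15. Il2rb, the signalling chain for IL-2 and IL-15, stood at 387 CPM in ILC2s and 0.0790 in eosinophils, Il7r at 233 and 4.33, and Il9r at 195 and 1.86. Csf2rb, the chain shared by receptors for IL-5, IL-3 and GM-CSF, averaged 4055 ± 84.0 CPM in eosinophils and 14.5 ± 1.33 in ILC2s. It has a near-identical copy, Csf2rb2 (2083 and 3.82 CPM), so the share of each is uncertain. Csf2ra, the GM-CSF receptor chain, read 1495, 1465 and 1457 CPM in eosinophils and 16.4, 15.4 and 15.2 in ILC2s. Csf1r stood at 472 against 0.3596 CPM. Il4ra (169 and 131 CPM) and Il3ra (46.6 and 39.7 CPM) were within 2-fold between the cells, as was Il10ra (127 and 145 CPM), which turned from a log2 fold change of -0.18 to 0.21 with library totals and 0.02 with upper quartile scaling.

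Of 83 ligand and receptor pairs, 56 had both transcripts at 1 CPM or more in at least 1 of the cells. In 5 of these the ligand was over 2-fold higher in ILC2s and the receptor over 2-fold higher in eosinophils, namely Il13 with Il13ra1, Csf2 with Csf2ra, Lif with Lifr, Il6 with Il6ra and Cxcl3 with Cxcr2. Lifr, the LIF receptor chain, read 28.6, 24.6 and 20.6 CPM in eosinophils and 0.207, 0.173 and 0.0400 in ILC2s. Il13ra1 averaged 4.59 ± 0.920 CPM in eosinophils and had 3 counts in ILC2s, a ratio of 110.4, with a 95% counting error interval of 37.3 to 539. Il6ra was close to the lower limit (1.03 CPM in eosinophils, 0.250 in ILC2s), and Cxcr2, the receptor of CXC neutrophil attractants, stood at 117 and 0.0820 CPM.

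In 12 pairs the ligand was higher in eosinophils and the receptor in ILC2s. They included Icosl with Icos, Cd80 and Cd86 with Cd28 and Ctla4, Tnf with Tnfrsf1b, Il1b with Il1r2, Ccl17 and Ccl22 with Ccr4, and Cxcl16 with Cxcr6. Icosl, the ligand of ICOS, read 131, 127 and 128 CPM in eosinophils and 54.2, 64.1 and 65.4 CPM in ILC2s, so both cells carried it. Ctla4, an inhibitory receptor of the B7 ligands, averaged 187 ± 14.4 CPM in ILC2s with 1 count in eosinophils, a ratio of 9808, with a 95% counting error interval of 1760.0 to 387421, while its ligands Cd80 (31.9 against 2.20 CPM) and Cd86 (8.06 against 0.139 CPM) lay with eosinophils. Cd28 was low in ILC2s (1.96 CPM). Ccr4, a type 2 chemokine receptor, stood at 123 CPM in ILC2s and 0.114 in eosinophils. Its ligands were modest in eosinophils, Ccl22 at 12.0 and Ccl17 at 4.24 CPM. Il1r2, the decoy receptor for IL-1, read 299, 314 and 327 CPM in ILC2s and 9.88, 10.2 and 11.2 CPM in eosinophils.

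In 28 further pairs both transcripts were over 2-fold higher in the same cell, 17 in eosinophils and 11 in ILC2s. Il5 and Il5ra were of the first kind, together with Csf1 and Csf1r, Ccl6 and Ccr1, and Cd47 and Sirpa. In ILC2s these ligands read 326 (Il5), 29.3 (Csf1), 2.24 (Ccl6) and 420 CPM (Cd47), so the ligands were not confined to eosinophils. Of their receptors, Il5ra (0.0825 CPM), Csf1r (0.3596) and Sirpa (0.707) were under 1 CPM in ILC2s, while Ccr1 read 18.8 CPM. Among the second, Tnfsf8, the CD30 ligand, averaged 33.9 ± 1.04 CPM in ILC2s with 0 counts in eosinophils (at least 595-fold higher), and its receptor Tnfrsf8 474 ± 44.7 CPM with 2 counts in eosinophils, a ratio of 12466, with a 95% counting error interval of 3451 to 102937. Tnfsf10, which encodes TRAIL, stood at 306 against 0.129 CPM and its receptor Tnfrsf10b at 29.9 against 3.79. Calca paired with Ramp1 (92.9 against 0.708 CPM), a subunit of the CGRP receptor, and Kitl (12.0 against 0.110 CPM) with Kit (54.0 against 3.09). The log2 fold change of Kitl, 6.64, rested on eosinophil replicate 2, without which it was 11.00. Transcripts do not show that a protein was released or bound.

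**Figure D3:**
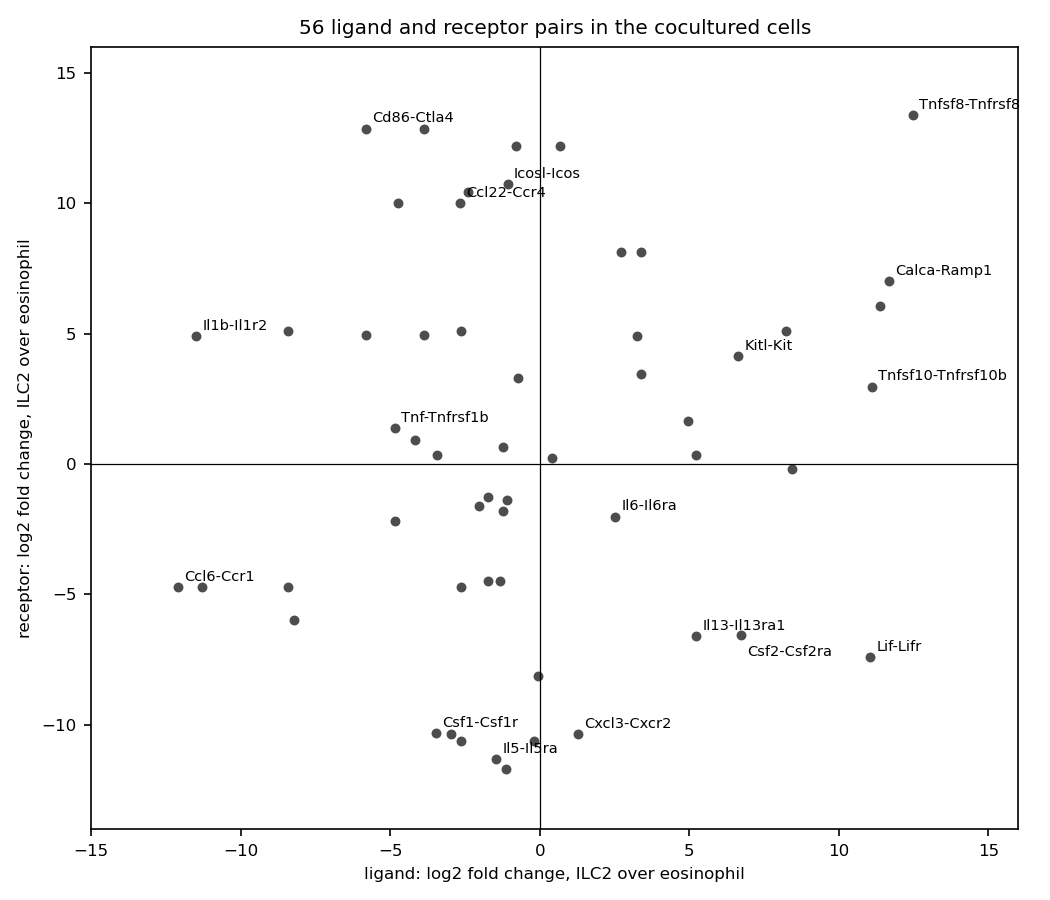
Each of the 56 points is a ligand and receptor pair, with the log2 fold change of ILC2s over eosinophils of the ligand on the x axis and of the receptor on the y axis. The upper left area holds pairs with the ligand on the eosinophil side and the receptor on the ILC2 side, such as Ccl22 with Ccr4, and the lower right the reverse, such as Lif with Lifr.

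Of 28 tested costimulation and checkpoint genes 15 (53.6%) were higher in ILC2s and 12 (42.9%) in eosinophils, against 43.6% and 40.5% of all genes. Pdcd1, which encodes PD-1, averaged 119 ± 0.939 CPM in ILC2s with 1 count in eosinophils, a ratio of 6264, with a 95% counting error interval of 1124 to 247455. Its ligand gene Cd274 read 23.9, 24.4 and 24.96 CPM in ILC2s and 43.5, 43.3 and 40.8 in eosinophils (-0.80 ± 0.072), groups that were apart by less than 2-fold in the mean. Tigit stood at 39.4 against 0.138 CPM, and Havcr2 at 7.26 against 0.735. Vsir, which encodes the checkpoint protein VISTA, was an eosinophil gene (1482 against 22.0 CPM), as was Entpd1, the ectonucleotidase CD39 (270.0 against 4.72). Cd48 did not pass the test (95.5 and 99.8 CPM, -0.06), and by library totals and upper quartile scaling it was higher in ILC2s (0.33 and 0.14). TNF family ligands were higher in ILC2s in 8 of 12 tested cases and in eosinophils in 4. Tnfsf11, which encodes RANKL, had 0 counts in eosinophils (at least 278-fold higher at 15.9 CPM in ILC2s), while Tnfsf14 (200.02 against 59.9 CPM) and Ltb (251 against 100.01) were eosinophil genes. TNF family receptors divided 9 to 8 of 18 (50% and 44.4%), near the 43.6% and 40.5% of all genes. Tnfrsf25 (78.1 against 0.224 CPM), the TL1A receptor, was on the ILC2 side and Tnfrsf21 (103 against 2.28) on the eosinophil side.

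Chemokines lay with the eosinophils in 10 of 13 tested cases and with ILC2s in 2. Ccl6, a CCR1 ligand, averaged 9766 ± 473 CPM in eosinophils and 2.24 in ILC2s. Per kilobase of exon it was the third most abundant among protein-coding genes in the eosinophil libraries, after Tmsb4x and Actb. Ccl9 stood at 848 against 0.330 CPM and Ccl5 at 32.7 against 5.29. The 2 on the ILC2 side were Cxcl3 (7.10 against 2.93 CPM) and Ccl1 (0.764 against 0.118 CPM), both low. Ccl24, an eotaxin, was at 3.91 and 4.46 CPM and did not pass; its log2 fold change of -0.18 became 0.21 by library totals and 0.02 by upper quartile scaling. Chemoattractant receptors were higher in ILC2s in 8 of 20 tested cases (40%) and in eosinophils in 11 (55%), against 43.6% and 40.5% of all genes. Ccr2 (441 against 8.41 CPM) and Ccr8 (96.1 CPM, ratio 5055, with a 95% counting error interval of 907 to 199688) were ILC2 genes, and C3ar1, the complement C3a receptor (335 against 0.193 CPM), and Ccr1 (491 against 18.8) were eosinophil genes.

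Among genes averaging 8 CPM or more, the largest log2 fold changes fell on transcripts with few or no counts in the other cell. On the ILC2 side Tph1, the tryptophan hydroxylase of serotonin synthesis, read 152, 147 and 158 CPM with 0 counts in eosinophils, at least 2678-fold higher. Pimreg, a mitotic regulator (at least 711-fold), Bace2, a secretase (616-fold as a lower bound), and Msc, a helix-loop-helix repressor (615-fold as a lower bound), also had 0 counts there. Pxdc1 averaged 253 CPM in ILC2s, a ratio of 6667, with a 95% counting error interval of 1845 to 55056. On the eosinophil side Clec4a2, an inhibitory lectin receptor, read 147, 159 and 165 CPM with 0 counts in ILC2s, at least 3784-fold higher. Cd300c2 (62.1 CPM, at least 1498-fold) and F830208F22Rik (44.1 CPM, at least 1064-fold) likewise had 0 counts in ILC2s. Cybb, the catalytic subunit of the NADPH oxidase, stood at 1749 against 0.236 CPM. F630028O10Rik (282 CPM, ratio 10198, with a 95% counting error interval of 2823 to 84216) and Gm14548 (148 CPM, ratio 10722, with a 95% counting error interval of 1924 to 423561) had 1 or 2 counts in ILC2s. Gm14548 and other members of paired receptor families can share reads with close copies and are uncertain.

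Proliferation genes lay with ILC2s. All 26 tested mitosis genes and all 30 tested DNA replication genes were higher in ILC2s, with median log2 fold changes of 6.79 and 3.27. In the DNA replication list 1 gene did not pass with RLE scaling. Mki67, which encodes the proliferation antigen Ki-67, read 753, 693 and 634 CPM in ILC2s and 40.6, 49.1 and 41.6 CPM in eosinophils. Top2a, the topoisomerase of dividing cells, averaged 587 ± 45.8 against 2.63 ± 0.316 CPM, Kif11 168 against 0.600, and Cenpf, a kinetochore protein, 139 against 0.227. Rrm2, the regulated subunit of ribonucleotide reductase, stood at 195 against 1.75 CPM, its partner Rrm1 at 223 against 14.3, and Lig1, a DNA ligase, at 209 against 12.1. Of the mitosis genes 15 were under 1 CPM in eosinophils, whereas Mki67 was not. All 22 ribosome biogenesis genes were also higher in ILC2s (median 1.37), among them Npm1 (957 against 117 CPM), Myc (66.6 against 0.263) and the polymerase gene Polr1a (114 against 15.7).

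Mitotic promoters commonly combine a cell cycle homology region with CCAAT boxes, and the Cenpf window (Cenpf chr1:189688037-189688336 on the minus strand, GRCm38.p6) is shown as an example, with TTTGAA and CCAAT on either strand in capitals.
Cenpf: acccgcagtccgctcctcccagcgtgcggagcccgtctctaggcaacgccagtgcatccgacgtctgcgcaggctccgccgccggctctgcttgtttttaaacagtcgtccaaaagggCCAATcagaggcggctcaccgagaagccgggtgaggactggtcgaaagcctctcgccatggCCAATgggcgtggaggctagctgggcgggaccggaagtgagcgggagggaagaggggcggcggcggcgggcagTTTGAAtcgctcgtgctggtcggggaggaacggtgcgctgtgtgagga
It holds 3 matches, a pair of CCAAT boxes and 1 TTTGAA. Among the 23 windows of 22 matched mitosis genes, TTTGAA was in 17 (73.9%) and CCAAT in 19 (82.6%), against 17.9% and 37.4% of all 32851 windows. The 28 windows of 24 matched DNA replication genes held TTTGAA in 4 (14.3%) and CCAAT in 17 (60.7%).

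Glycolysis genes were divided, 12 of 21 (57.1%) higher in ILC2s and 8 (38.1%) in eosinophils (median 0.55), against 43.6% and 40.5% of all genes. Their summed level was 15603 to 16521 CPM in ILC2s and 12942 to 13653 CPM in eosinophils. Pgk1, phosphoglycerate kinase, read 1280.1, 1299.7 and 1365 CPM in ILC2s and 222, 213 and 228 CPM in eosinophils, groups far apart (2.57 ± 0.049). Pfkl and Pfkp, both phosphofructokinase subunits, stood at 309.6 against 65.7 and 560.2 against 128 CPM, and Tpi1, triosephosphate isomerase, at 841 against 233. Gapdh was within 2-fold, reading 2232, 2207 and 2344 CPM in ILC2s and 1548, 1482 and 1587 in eosinophils (0.55 ± 0.045). Among genes of glucose uptake and phosphorylation on the eosinophil side, Hk2 averaged 450.0 against 156 CPM, the myeloid hexokinase Hk3 53.8 against 0.792, and the glucose transporter gene Slc2a3 443 against 158.

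Hypoxia response genes were on the ILC2 side in 16 of 19 cases and on the eosinophil side in 2 (median 2.69). Egln3, a prolyl hydroxylase that acts on HIF, read 367, 363 and 395 CPM in ILC2s and 43.8, 41.9 and 43.3 CPM in eosinophils. Ndrg1 stood at 123 against 3.47 CPM, Ero1l, an oxidase of protein folding, at 1448 against 225, and the angiogenic factor Vegfa at 75.3 against 10.4. The 2 exceptions were Mxi1 (-1.27) and Hif1a itself (473 and 527 CPM, -0.15), which turned to 0.24 by library totals and 0.05 by upper quartile scaling.

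Both lists contain known targets of HIF, which binds the core ACGTG, a string that also lies within the E-box CACGTG read by MYC. The windows of Pgk1 and Egln3 (GRCm38.p6, Pgk1 chrX:106186850-106187149 on the plus strand and Egln3 chr12:54203825-54204124 on the minus strand) are shown with ACGTG on either strand in capitals.
Pgk1: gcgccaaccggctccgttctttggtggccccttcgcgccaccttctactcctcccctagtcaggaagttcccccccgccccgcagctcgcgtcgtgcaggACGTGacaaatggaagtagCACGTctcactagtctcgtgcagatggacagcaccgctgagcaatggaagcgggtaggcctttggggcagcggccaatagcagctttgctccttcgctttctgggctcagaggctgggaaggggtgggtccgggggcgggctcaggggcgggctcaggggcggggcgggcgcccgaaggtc
Egln3: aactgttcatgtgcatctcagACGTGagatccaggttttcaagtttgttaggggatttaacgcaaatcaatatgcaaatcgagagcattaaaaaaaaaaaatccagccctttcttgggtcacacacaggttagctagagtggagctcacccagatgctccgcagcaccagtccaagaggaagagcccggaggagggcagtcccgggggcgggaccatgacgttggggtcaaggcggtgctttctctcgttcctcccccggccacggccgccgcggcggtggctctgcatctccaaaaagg
Pgk1 holds 2 matches, 1 on each strand, and Egln3 holds 1. The core was in 18 of 32 windows of 20 matched glycolysis genes (56.2%) and in 13 of 22 windows of 16 matched hypoxia genes (59.1%), against 19.6% of all windows. Among the windows of mitosis genes it was in 7 of 23 (30.4%).

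**Figure D4:**
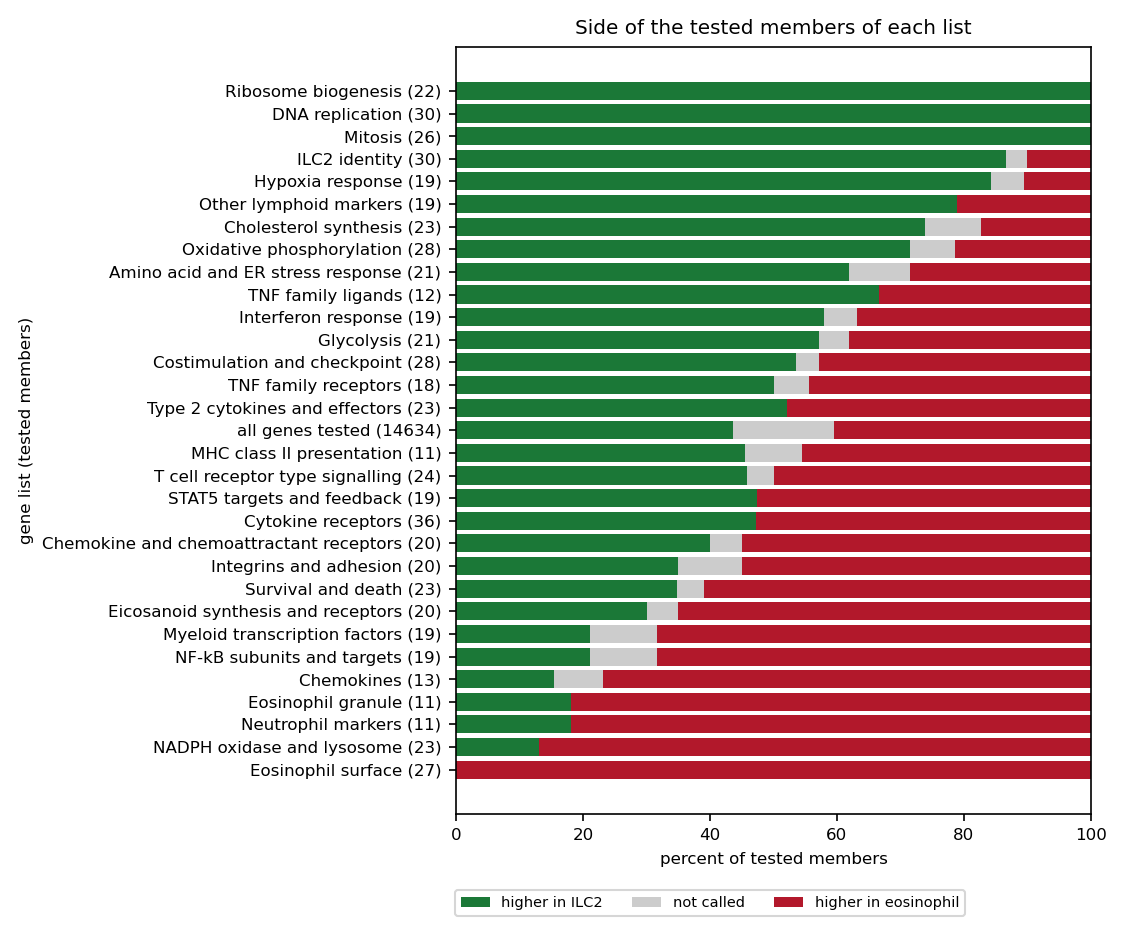
Each bar is 1 gene list with at least 10 tested members, with all tested genes as a reference bar, and shows the percent of tested members called higher in ILC2s (green), not called (grey) and called higher in eosinophils (red). Mitosis, DNA replication and ribosome biogenesis were wholly on the ILC2 side and eosinophil surface genes wholly on the eosinophil side.

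Of 28 oxidative phosphorylation genes 20 were higher in ILC2s and 6 in eosinophils, or 24 and 1 by library totals, and 2 of the 20 were over 2-fold. Those with the smallest p on the ILC2 side were Cycs, cytochrome c (74.2 against 26.6 CPM), Atp5a1 (621 against 348) and Uqcrfs1 (81.6 against 38.9), while Ndufa4 was higher in eosinophils (-0.93). Cholesterol synthesis genes were with ILC2s in 17 of 23 cases, such as Hsd17b7 (44.7 against 3.41 CPM), Insig1 (59.7 against 14.4) and Lss (70.3 against 15.6). Mvd, a decarboxylase of the mevalonate pathway (92.1 against 19.7 CPM), was among 4 on the eosinophil side. Amino acid and ER stress genes split 13 to 6 of 21. Serine synthesis lay with ILC2s (Psat1 111 against 6.74 CPM, Phgdh 34.3 CPM with a ratio of 600.3, with a 95% counting error interval of 205 to 2913), as did the chaperone gene Hspa5 (635 against 152). The cystine transporter gene Slc7a11 (66.9 against 0.126 CPM) and its heavy chain Slc3a2 (411 against 81.0) lay with eosinophils.

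Effector machinery of granulocytes was on the eosinophil side. Of 23 NADPH oxidase and lysosome genes 20 were higher in eosinophils and 3 in ILC2s, and the list summed to 15745 to 16788 CPM against 2436 to 2582 CPM. Ncf1, the p47phox subunit, averaged 3461 ± 68.3 CPM against 1.05 in ILC2s. Lgmn, a lysosomal protease (166 against 24.4 CPM), Ctsw (16.5 against 0.186) and Ctsb (255 against 144) were the 3 on the ILC2 side. Eicosanoid genes were with eosinophils in 13 of 20 cases and with ILC2s in 6. Alox5ap, which feeds leukotriene synthesis, averaged 1598 ± 102 CPM in eosinophils and 2.64 in ILC2s, and Tbxas1, thromboxane synthase, 405 and 0.222. The receptors that answer cysteinyl leukotrienes were ILC2 genes, Cysltr1 at 297, 309.5 and 329 CPM against 0.121, 0.495 and 0.167 in eosinophils and Cysltr2 at 69.6 against 0.333 CPM. Hpgds, a prostaglandin D synthase, also lay with ILC2s (12.3 against 0.795 CPM).

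Adhesion and antigen presentation genes were mixed. Of 20 integrin and adhesion genes 11 (55%) were higher in eosinophils and 7 (35%) in ILC2s (10 each by library totals). Of all genes 40.5% were higher in eosinophils and 43.6% in ILC2s. The myeloid integrin genes Itgam (1356 against 0.316 CPM) and Itgax (865 against 0.222) marked the eosinophils, whereas Itga4 (515 against 272), Itga6 (41.6 against 15.6) and Itgb3 (541 against 321) were higher in ILC2s. MHC class II genes split 5 to 5 of 11 (45.5% each), near the shares of all genes. The chains named here did not go together. H2-Ab1 was higher in ILC2s (43.4 against 21.4 CPM), and H2-Aa (19.5 against 0.441), H2-Eb1 (20.98 against 0.806) and the invariant chain gene Cd74 (51.4 against 20.2) in eosinophils.

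STAT5 targets and feedback genes were higher in ILC2s in 9 of 19 cases (47.4%) and in eosinophils in 10 (52.6%), against 43.6% and 40.5% of all genes. By library totals they were 10 and 8. The cyclin gene Ccnd2 (266 against 6.75 CPM) was on the ILC2 side and Socs2 (305 against 55.3) on the eosinophil side. NF-kB genes were higher in eosinophils in 13 of 19 cases and in ILC2s in 4 (9 each by library totals). Tnfaip3, which encodes the inhibitor A20, stood at 291 CPM in eosinophils and 50.5 in ILC2s, and Tnfaip2 at 69.9 and 0.153. Traf1, a signalling adaptor, was higher in ILC2s (118 against 9.89 CPM). Survival and death genes were with eosinophils in 14 of 23 cases and with ILC2s in 8 (12 and 10 by library totals). Bcl2 marked the ILC2s (156 against 19.97 CPM), and Mcl1 (1527 against 285) and Bcl2a1b (89.2 against 0.608, a family of close copies and so uncertain) the eosinophils. Antigen receptor type signalling genes were higher in ILC2s in 11 of 24 cases (45.8%) and in eosinophils in 12 (50%). The shares over all genes were 43.6% and 40.5%. Rasgrp1 (219 against 1.05 CPM) and Irf4 (312 against 2.01) were ILC2 genes, and the kinase genes Syk (919 against 4.15) and Btk (509.9 against 2.98) were eosinophil genes. Interferon response genes were higher in ILC2s in 11 of 19 cases (57.9%) and in eosinophils in 7 (36.8%), or 11 and 3 by library totals. Gbp2 (44.0 CPM in ILC2s against 5.64) and Oasl2 (24.8 CPM in eosinophils against 0.247) were examples of either side.

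The same contrast in cells cultured alone shares no library with this one and was used to show where the cocultured cells differed from it. Alone, 5923 of 14525 genes (40.8%) were higher in ILC2s and 5796 (39.9%) in eosinophils, or 8587 and 3664 by library totals. Of 13887 genes tested both ways, 4395 lay with ILC2s in both settings and 4381 with eosinophils in both. Another 676 were higher in ILC2s cocultured but in eosinophils alone, and 560 the reverse, together 8.9% of those tested both ways. Over 2-fold in both settings there were 113 of the former and 18 of the latter. A test of the change itself over all 12 libraries called 4215 of 15745 genes (26.8%) moving towards ILC2s and 3899 (24.8%) towards eosinophils, and 3357 and 5112 by library totals.

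**Figure D5:**
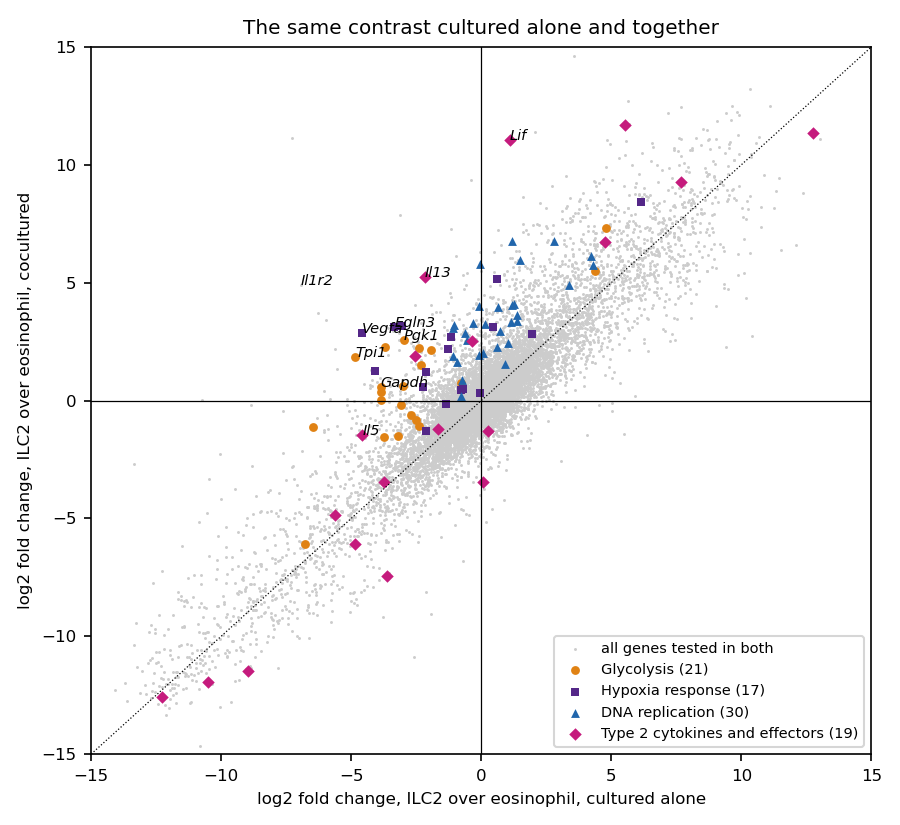
Each grey point is a gene tested in both settings, with the log2 fold change of ILC2s over eosinophils cultured alone on the x axis and cocultured on the y axis; coloured symbols are 4 lists and the dotted line marks equal values. The glycolysis genes and Il13 lie above the line, and those in the upper left, such as Pgk1, were higher in eosinophils alone and in ILC2s cocultured.

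Il13 changed sides. Scaled over the 12 libraries, it read 31.2, 32.5 and 31.1 CPM in ILC2s alone and 959.6, 1003 and 1028 CPM in cocultured ILC2s. In eosinophils it read 142, 135 and 155 CPM alone and 30.6, 21.4 and 27.1 CPM cocultured. The level was thus higher in cocultured than lone ILC2s and lower in cocultured than lone eosinophils, with no overlap, and the log2 fold change went from -2.18 ± 0.068 alone by 7.43 ± 0.12 (edgeR adjusted p = 3.13e-23). Il5 moved the same way without changing sides. It read 50.1, 50.6 and 51.1 CPM in ILC2s alone and 324, 332 and 348 cocultured, and 1209, 1165 and 1261 CPM in eosinophils alone and 888, 877 and 968 cocultured. Its log2 fold change was -4.57 alone and -1.45 cocultured, a change of 3.14 ± 0.077. Lif had a log2 fold change of 1.10 alone and 11.04 cocultured, and Osm -2.55 and 1.89. Il6 stood at -0.35 alone, with a change of 2.91 ± 0.25. Csf2 changed by 1.98 ± 0.69 (edgeR adjusted p = 0.0186), and this call did not hold with DESeq2 (adjusted p = 0.105). It was also lost without cocultured eosinophil replicate 2 (edgeR adjusted p = 0.0559) or without lone eosinophil replicate 1 (0.0506) or 3 (0.053), while without cocultured eosinophil replicate 1 the change was 4.16. For Il4 (-3.75 alone, -3.45 cocultured, edgeR adjusted p = 0.0942) and Siglecf (-12.54 and -12.37, edgeR adjusted p = 0.779) the change did not pass the test.

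Glycolysis genes moved towards ILC2s. Alone, 19 of the 21 were higher in eosinophils and 2 in ILC2s, against 8 and 12 cocultured, and the change towards ILC2s was called for all 21 (20 by library totals or upper quartile scaling), against 26.8% of all genes. Pgk1 read 154, 139.8 and 146 CPM in ILC2s alone and 1316, 1334 and 1401 cocultured, and 1165, 1125 and 1181 CPM in eosinophils alone and 226, 218 and 233 cocultured. It was higher in cocultured than lone ILC2s and lower in cocultured than lone eosinophils, without overlap. Tpi1 went from -4.85 to 1.85. Gapdh went from -3.86 to 0.55. Among hypoxia genes 12 of 17 were higher in eosinophils alone, and 18 of 19 were called moving towards ILC2s. Egln3 read 50.9, 50.8 and 49.5 CPM in ILC2s alone and 377, 373 and 406 cocultured, and 512, 509.9 and 514 CPM in eosinophils alone and 44.7, 42.9 and 44.2 cocultured. Vegfa went from -4.60 to 2.85.

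When cultured alone, ILC2s had the higher level of 24 of 26 mitosis genes and of 15 of 30 DNA replication genes (7 were higher in eosinophils), and all 26 and all 30 were called moving towards ILC2s (29 replication genes by library totals or upper quartile scaling). Mki67 went from 0.99 to 3.98 and Rrm2 from 2.82 to 6.78. Of 28 oxidative phosphorylation genes 17 were higher in eosinophils and 6 in ILC2s alone, which turned to 11 and 16 by library totals, and 25 moved towards ILC2s (19 by library totals). Il1r2 had the largest change of the genes named for changing sides, from -6.94 ± 0.17 alone to 4.90 ± 0.067 cocultured. The decoy receptor read 0.720, 1.17 and 0.384 CPM in ILC2s alone and 307, 323 and 335 cocultured, and 101, 86.3 and 84.8 CPM in eosinophils alone and 10.1, 10.5 and 11.4 cocultured. Both cells therefore differed between settings, in opposite directions. Of 29 ILC2 identity genes tested alone 26 were higher in ILC2s. Of 30 tested for the change, 12 were called moving towards ILC2s and 6 towards eosinophils (11 and 8 by library totals). The shares over all genes were 26.8% and 24.8%. Of 27 eosinophil surface genes tested alone 26 were higher in eosinophils and 1 in ILC2s.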

How the data were processed

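RNA-seq was measured in 12 libraries in 4 groups of 3. The authors deposited a table of whole-number counts, 1 value per gene and library, that had not been normalised. STAR 2.5.2b, Subread 1.5.2 with featureCounts, Trimmomatic 0.36, bcl2fastq 2.17 and the mm10 build appear in the submitters' processing notes; the annotation and the strand setting were not given in the sources used here. Antisense overlaps and near-identical copies are therefore uncertain. GENCODE M21 named 49056 of 49315 genes. Replicate pairs differed beyond sampling noise.

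The main comparison and the lone-cell comparison each used their 6 libraries, and the change between them all 12, in edgeR 4.0.16 (R 4.3.3) with filterByExpr, TMM scaling, no covariates and the quasi-likelihood F test, adjusted by Benjamini-Hochberg; DESeq2 1.42.0 and limma 3.58.1 (voom) were alternatives. The fits were tested on simulated data in which few genes changed, up or down, so that test does not cover scaling where most genes differ. The common biological coefficient of variation was 5.02%. A count of 0 was set to a floor of 3 counts over the group (0.0415 CPM in ILC2s, 0.057 in eosinophils); intervals cover counting error only.

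Members and the 37 gene lists (711 genes, 709 in the table) were chosen with earlier results of these data known, as were the 83 pairs. Named genes were 24 chosen ones, the genes of the pairs, the 8 highest and 8 lowest log2 fold changes, up to 3 members per list and side, and 6 genes per direction with the smallest p among those called on opposite sides cocultured and alone. Partner marker levels used CPM by library totals, markers of at least 10 CPM in the partner, and exact permutation tests. Promoters came from RefSeq windows. Some genes that this rule names are not reported here.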

Additional observations from a re-analysis of the deposited data

Results flagged for a closer look

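For 12 named genes the log2 difference between ILC2s and eosinophils lay on opposite sides in the cocultured and the lone cells, with the change itself called by edgeR over the 12 libraries. Moving towards ILC2s were Il1r2, which changed by 11.86, Tpi1 by 6.72, Cyp11a1 by 6.69, Egln3 by 6.48, Pgk1 by 5.56 and Pfkl by 4.66. Cyp11a1 encodes the enzyme that starts steroid synthesis and stood at 589.7 ± 14.5 CPM in cocultured ILC2s and 69.4 ± 2.44 in cocultured eosinophils. Moving towards eosinophils were Tbc1d4, with a change of -5.05, Smpdl3a with -2.83, Ypel3 with -2.63, Gramd1a with -2.53, Mfng with -2.2 and Zfp36l2 with -1.99. Tbc1d4, a regulator of glucose transporter traffic, stood at 4.31 ± 1.41 CPM in cocultured ILC2s and 79.3 ± 4.28 in cocultured eosinophils. Gramd1a rested on scaling, as its cocultured log2 fold change of -0.21 became 0.18 by library totals. The genes were picked by smallest p among those that changed sides, so their direction is no independent evidence.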

How the results depend on the processing

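Counts of called genes in the 3 comparisons stayed within 1.5 times of the reported ones under the alternatives run, with 2 exceptions by library totals, where 3664 genes were higher in eosinophils alone and 434 were higher in ILC2s cocultured and in eosinophils alone. Leaving out 1 replicate gave 6319 to 6476 genes higher in ILC2s and 5870 to 5965 in eosinophils (4169 to 4295 and 3304 to 3381 over 2-fold), 5717 to 6086 and 5662 to 5875 alone (3722 to 3875 and 3370 to 3496 over 2-fold), 4005 to 4271 moving towards ILC2s and 3650 to 4006 towards eosinophils, and 632 to 667 and 501 to 552 on opposite sides. Marker levels then ran from 0.272% to 0.295% in eosinophils and 0.0452% to 0.0596% in ILC2s. As a mean over markers they were 20.1% and 1.92%, and the first was 0.366% with TMM over 12 libraries.

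Among named genes, library totals reversed Ikzf3 (9e-04), Hif1a (0.2428), Cd48 (0.3322), Ccl24 (0.2132), Il10ra (0.2128) and Gramd1a (0.1822). Upper quartile scaling reversed Hif1a (0.0458), Cd48 (0.1351), Ccl24 (0.0167) and Il10ra (0.016). These are shifts of the scaling itself. The labels give no shared source for equal replicate numbers, so no pairing was used. In their deviations over 8937 genes, same-numbered cocultured libraries correlated at -0.02, 0.038 and 0.041. Those with different numbers ran from -0.063 to 0.027. With a replicate block 6329 genes were higher in ILC2s and 5868 in eosinophils, and 4221 and 3929 moved. With 3 replicates, 3 counts over a group limit what can be called absent.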
